A study of Mus musculus with 12 samples.

Results

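Hemoglobin transcripts were followed with 11 microarray probes for 7 mouse genes, out of 41174 probes for 27548 gene names on the array. The genes are the embryonic globins Hba-x (zeta), Hbb-y (epsilon y) and Hbb-bh1 (beta h1), the adult globins Hba-a1, Hba-a2 and Hbb-b1, and Eraf, the alpha-globin chaperone now named Ahsp. All probes carrying 1 of these gene names in the scanner files were taken. Hba-x, Hba-a1, Hba-a2, Hbb-y and Eraf have 1 probe each, Hbb-bh1 has 2 and Hbb-b1, now named Hbb-bt, has 4. Each probe was treated on its own.

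The cells came from CD-1 mouse embryos at embryonic day 7.5, about 300 embryos of 25 litters combined into 1 pool. The pool was stained for endoglin (Eng), a co-receptor of the TGF-beta family, and for Flk1, the VEGF receptor encoded by Kdr, and was sorted into 4 fractions, the double-positive Eng+Flk1+, the single-positive Eng+Flk1- and Eng-Flk1+, and the double-negative Eng-Flk1-. No allele or treatment differed between fractions, which were defined by antibody staining alone. Each fraction was sorted 3 times at 3000 cells, and each sort was amplified by global PCR with the SuperAmp kit and put on its own Cy3 array. All 12 samples thus came from 1 pool of embryos, and the p-values cover the spread between sorts, which may be technical.

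Hemoglobin is a tetramer of alpha-type and beta-type globin chains, each carrying a heme group. The alpha-type genes lie in 1 cluster and the beta-type genes in another, and within each cluster the embryonic gene precedes the adult genes. The first red cells of the mouse arise in the yolk sac blood islands and use mainly Hba-x, Hbb-bh1 and Hbb-y, and the adult beta chains dominate in definitive red cells of the fetal liver and bone marrow. The adult alpha genes are used in both lineages. Eraf binds free alpha chains and keeps them from precipitating.

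The probe sequences are shown first because they set which transcripts each signal can hold. Positions are those of build mm8 in the scanner files, and a probe is called by its gene or, where a gene has several, by the transcript base at which it starts. The 2 adult alpha probes overlap by 30 bases, shown in capitals, of which 27 are the same. The bases that differ are T37C, C49T and C52T, counted from 1 at the 5′ end of the Hba-a1 probe. The file lists both the Hba-a1 and the Hba-a2 transcript for the Hba-a1 probe, and no RefSeq transcript for the Hba-a2 probe. Signals of the 2 adult alpha genes may therefore be mixed. The listed interval of the Hba-a1 probe, 182 bases, is longer than its 60 bases.
Hba-a1 (A_52_P278538, chr11:32183775-32183956, plus strand): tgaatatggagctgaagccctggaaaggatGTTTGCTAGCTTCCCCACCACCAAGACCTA
Hba-a2 (A_52_P208681, chr11:32196744-32196803, plus strand): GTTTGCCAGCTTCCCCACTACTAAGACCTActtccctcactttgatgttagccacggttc

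The probes of the 3 embryonic globins show which transcript stretches carried the embryonic signal. The 2 Hbb-bh1 probes share 40 bases, in capitals, and so are not independent readings.
Hba-x (A_51_P204053, chr11:32177668-32177727, plus strand): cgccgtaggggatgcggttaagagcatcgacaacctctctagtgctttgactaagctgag
Hbb-y (A_51_P350058, chr7:103726719-103726778, minus strand): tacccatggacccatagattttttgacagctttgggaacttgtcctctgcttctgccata
Hbb-bh1, base 375 (A_52_P305876, chr7:103715634-103715693, minus strand): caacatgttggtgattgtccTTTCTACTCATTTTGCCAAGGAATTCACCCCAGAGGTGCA
Hbb-bh1, base 395 (A_51_P179672, chr7:103715614-103715673, minus strand): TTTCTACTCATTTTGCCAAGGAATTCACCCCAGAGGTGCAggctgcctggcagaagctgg

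Of the adult beta probes, those at bases 231 and 262 of the transcript share 29 bases, in capitals, and are listed for the Hbb-bt transcript alone. The probes at bases 61 and 496 are also listed for Hbb-b2, a second adult beta gene, so their signal can hold both. The sequence at base 496, at the 3′ end of the transcript, is not shown.
Hbb-b1, base 61 (A_51_P374468, chr7:103687624-103687683, minus strand): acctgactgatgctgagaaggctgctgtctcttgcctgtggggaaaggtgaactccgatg
Hbb-b1, base 231 (A_52_P260346, chr7:103687338-103687397, minus strand): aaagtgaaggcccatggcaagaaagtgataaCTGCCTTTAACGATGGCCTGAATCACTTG
Hbb-b1, base 262 (A_51_P374476, chr7:103687307-103687366, minus strand): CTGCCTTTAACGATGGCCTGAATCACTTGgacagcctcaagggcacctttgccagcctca

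Levels are log2 processed signal less the 75th percentile of the same array, so that 0 is the level of that percentile. Levels of different probes are not compared, because probes differ in brightness. A log2 fold is the level in the first-named fraction minus that in the second, with its standard error from 1 limma fit of all 12 arrays. A probe was called where limma's Benjamini-Hochberg adjusted p over all 33142 probes tested was under 0.05. All 11 probes were tested, since each was detected, well above background, in every array of 1 or more fractions, and none of their spots was saturated. Hbb-b1 at base 496 entered the test only through Eng-Flk1-, where it is high, and is part of the counts below.

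The Eng-Flk1- arrays stood apart over the whole array. Between 66.5% and 76.3% of spots were well above background on them, against 80.2% to 83.3% on the other arrays. Within Eng-Flk1- the arrays correlated at 0.645 to 0.685 over probes, and within the other fractions at 0.783 to 0.895. The median SD of probes was 1.09 in Eng-Flk1- cells and 0.625 to 0.732 in the others, while the fit uses 1 spread for all fractions. Kdr lay between 0.47 and 1.96 in the Flk1+ fractions and between -7.28 and -3.27 in the Flk1- fractions. Eng lay between -0.16 and 2.76 in the Eng+ fractions and between -1.47 and 1.62 in the Eng- fractions, so its ranges overlapped. The 3 slides were not balanced over fractions: slide 1 held the 3 Eng-Flk1- arrays with Eng-Flk1+ replicate 1, slide 2 the other Eng-Flk1+ arrays with Eng+Flk1+ replicates 1 and 2, and slide 3 Eng+Flk1+ replicate 3 with the 3 Eng+Flk1- arrays.

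The adult globins were highest in the Eng-Flk1- fraction, on every array of it and for every probe. Hba-a1 had levels of -1.99, -1.61 and -1.93 in Eng+Flk1+ cells, 0.14, -1.22 and 3.57 in Eng+Flk1- cells, -2.31, -1.93 and 0.58 in Eng-Flk1+ cells, and 8.51, 7.85 and 8.79 in Eng-Flk1- cells. The Eng-Flk1- arrays lay above all others, and among the rest the 1 high array was Eng+Flk1- replicate 3. Hba-a2 had levels of -0.68, -0.50 and -0.83 in Eng+Flk1+ cells, 0.58, -0.67 and 2.85 in Eng+Flk1- cells, -1.23, 0.03 and 0.37 in Eng-Flk1+ cells, and 7.47, 6.90 and 7.82 in Eng-Flk1- cells. The same array of Eng+Flk1- was again high, and the ranges of Eng+Flk1+, Eng+Flk1- and Eng-Flk1+ overlapped for both genes, except that for Hba-a1 all Eng+Flk1+ arrays lay below all Eng+Flk1- arrays.

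The adult beta globin was likewise highest in Eng-Flk1- cells, while the order of the other fractions differed from that of the alpha genes. The Hbb-b1 probe at base 262 had levels of -1.50, -1.35 and -1.89 in Eng+Flk1+ cells, -1.95, -2.89 and -2.60 in Eng+Flk1- cells, -3.25, -1.81 and -2.78 in Eng-Flk1+ cells, and 7.10, 6.54 and 6.37 in Eng-Flk1- cells. The probe at base 231 had levels of -4.69, -4.56 and -4.76 in Eng+Flk1+ cells, -4.73, -4.67 and -4.76 in Eng+Flk1- cells, -7.18, -4.16 and -5.44 in Eng-Flk1+ cells, and 6.58, 5.90 and 5.81 in Eng-Flk1- cells. The level of -7.18 at base 231, on Eng-Flk1+ replicate 1, was not well above background. At both positions the Eng-Flk1- arrays were far from all others. No high array appeared in Eng+Flk1- here, in contrast to the adult alpha probes: replicate 3 of that fraction had -2.60 and -4.76.

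The probe at base 61, which is also listed for Hbb-b2, had levels of 1.59, 2.16 and 1.12 in Eng+Flk1+ cells, 1.91, 2.15 and 2.24 in Eng+Flk1- cells, 1.59, 1.87 and 1.38 in Eng-Flk1+ cells, and 6.05, 5.46 and 5.51 in Eng-Flk1- cells. The Eng-Flk1- arrays were again separate, by a smaller distance than at bases 231 and 262. The probe at base 496 had levels of -5.89, -6.21 and -6.56 in Eng+Flk1+ cells, -6.94, -6.50 and -6.74 in Eng+Flk1- cells, -8.38, -7.11 and -6.37 in Eng-Flk1+ cells, and 2.16, 0.47 and -4.63 in Eng-Flk1- cells. It was well above background on 1, 0, 0 and 3 of the 3 arrays of these fractions. Eng-Flk1- replicate 3, with -4.63, lay close to the other fractions here, unlike at the other 3 Hbb-b1 probes.

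**Figure D1:**
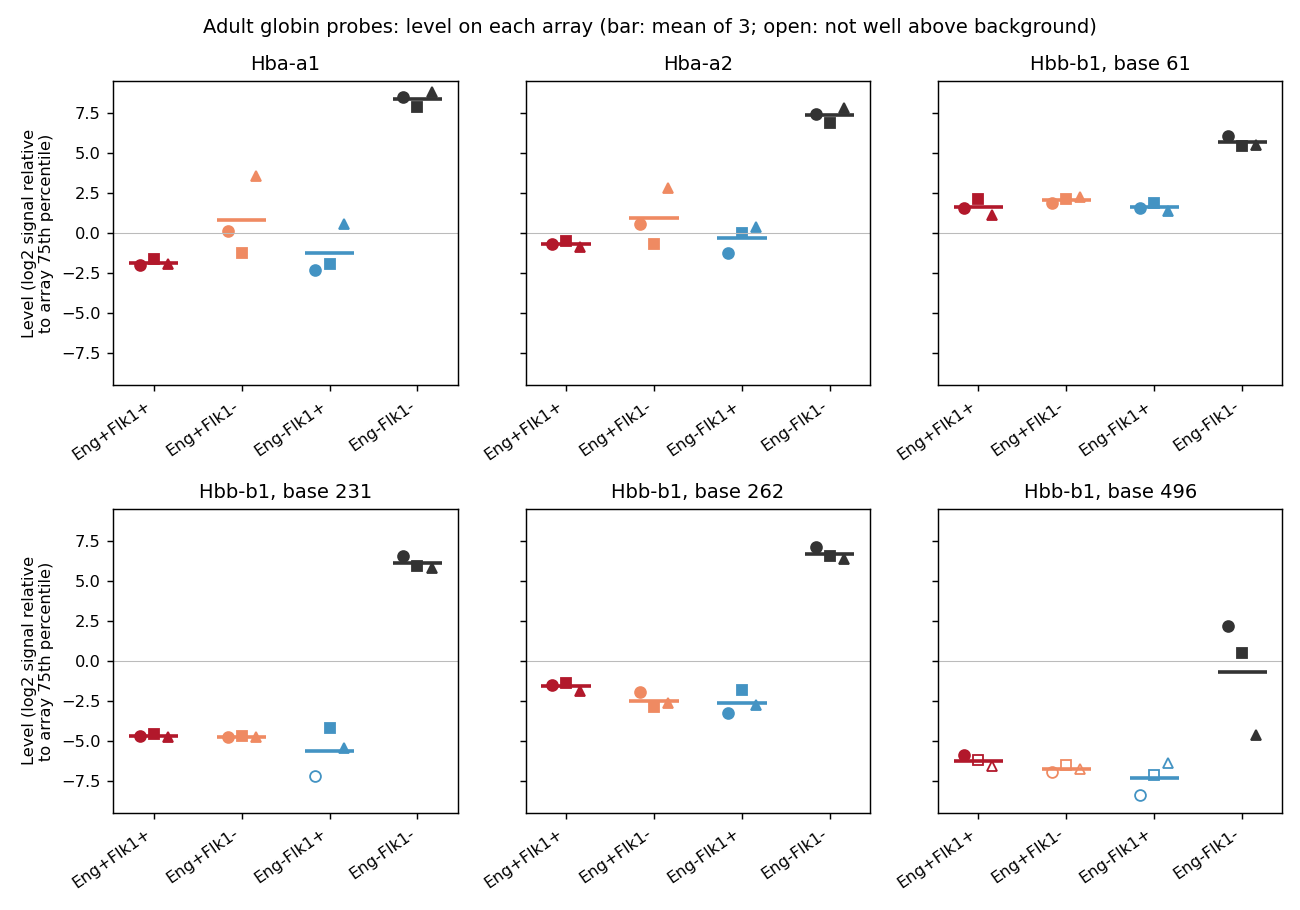
Levels of the 6 adult globin probes (y axis, log2 signal less the array's 75th percentile) in the 4 fractions (x axis), with 1 point per array, a bar at the mean of 3 arrays, circles, squares and triangles for replicates 1, 2 and 3, and open points for arrays not well above background. The Eng-Flk1- points lie above those of the other fractions in all panels, from 7.85 to 8.79 for Hba-a1, and spread widest at base 496 of Hbb-b1.

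Compared with Eng-Flk1-, 5 of the 6 adult probes fell in Eng+Flk1+ cells, 5 in Eng+Flk1- and all 6 in Eng-Flk1+ cells. The 3 comparisons share the Eng-Flk1- arrays and are not independent. Over the whole array, 0.422%, 0.238% and 0.269% of probes fell in these comparisons. Hba-a1 averaged -1.84 ± 0.20 in Eng+Flk1+ cells, 0.83 ± 2.47 in Eng+Flk1- cells and -1.22 ± 1.57 in Eng-Flk1+ cells, against 8.38 ± 0.49 in Eng-Flk1- cells (SD, n = 3 each). Its log2 fold was -10.22 ± 1.11 in Eng+Flk1+ cells (limma adjusted p = 0.00109), -7.55 ± 1.11 in Eng+Flk1- cells (limma adjusted p = 0.0073) and -9.60 ± 1.11 in Eng-Flk1+ cells (limma adjusted p = 0.00193). On a linear scale the last 2 are 187-fold and 777-fold lower. The Hba-a1 call in Eng+Flk1- was lost with array quality weights, an alternative chosen after seeing the data (limma adjusted p = 0.0966), and with only the 2 fractions in the fit (limma adjusted p = 0.0588). Hba-a2 fell with log2 folds of -8.07, -6.48 and -7.68 in the same order, each ± 0.80 (limma adjusted p = 0.000598, 0.00324 and 0.00115).

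Relative to Eng-Flk1-, Hbb-b1 at base 262 fell with log2 folds of -8.25 in Eng+Flk1+ cells, -9.14 in Eng+Flk1- cells and -9.28 in Eng-Flk1+ cells, each ± 0.50 (limma adjusted p = 5.22e-05, 5.61e-05 and 4.71e-05). These are differences of 304-fold, 566-fold and 623-fold. At base 231 the log2 folds were -10.77, -10.82 and -11.69, each ± 0.66, with the same adjusted p-values as at base 262. At base 61 they were -4.05, -3.57 and -4.06, each ± 0.43 (limma adjusted p = 0.000926, 0.0029 and 0.00115), the smallest folds of the adult probes. At base 496 the fall passed only in Eng-Flk1+ cells, where the level was at least 47.5-fold lower (limma adjusted p = 0.0301). It was at least 42.7-fold lower in Eng+Flk1- cells (limma adjusted p = 0.0514), and the log2 fold in Eng+Flk1+ was -5.55 ± 1.36 (limma adjusted p = 0.0574). The call in Eng-Flk1+ was lost in 9 of 22 alternatives, among them normexp background correction, the replicate block (limma adjusted p = 0.0538) and leaving out any 1 Eng-Flk1+ array, with adjusted p of 0.00062 to 0.274 over all 22. In Eng+Flk1- the probe was called with quantile normalization, the authors' deposited values, slide as a random block and array quality weights, and without Eng-Flk1- replicate 3. "At least" marks a fold against a fraction with no array well above background, whose level was raised to the dimmest detected level of each array.

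The slide layout limits these comparisons unequally. Slide 1 holds all Eng-Flk1- arrays and 1 Eng-Flk1+ array, and within it the log2 folds of Eng-Flk1+ over Eng-Flk1- were -10.70 for Hba-a1, -8.63 for Hba-a2, and -4.08, -13.27 and -9.92 for Hbb-b1 at bases 61, 231 and 262. At base 231 the Eng-Flk1+ array of this slide, at -7.18, was not well above background, so the size of -13.27 is uncertain. The other within-slide differences listed were at least as large as the pooled ones. With slide as a fixed block, 3 of 11 globin and Eraf probes, Hba-a2 and Hbb-b1 at bases 231 and 262, were called in Eng-Flk1+ over Eng-Flk1-, where 52 probes of the whole array were called. Eng-Flk1- shares no slide with Eng+Flk1- or Eng+Flk1+, so these are linked only through arrays of other fractions. With the block, 0 of 11 were called in Eng+Flk1- over Eng-Flk1-, where limma called 0 probes of the whole array and 1571 had an unadjusted p under 0.05, and 2 of 11, Hbb-b1 at bases 231 and 262, in Eng+Flk1+ over Eng-Flk1-, where it called 6. The adult folds in Eng+Flk1- over Eng-Flk1- were then -9.06 for Hba-a1, -7.66 for Hba-a2, and -2.86, -13.07 and -9.64 for Hbb-b1 at bases 61, 231 and 262, with adjusted p from 0.0813 to 0.945. With the block, slide 1 is linked to the other slides only through its Eng-Flk1+ array, so base 231 carries the same limit there.

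Some markers of other cell types were also highest in Eng-Flk1- cells. Of 10 visceral endoderm markers 9 were tested, and Ttr, Apoa1, Apoa4, Apob and Cubn fell in all 3 comparisons with Eng-Flk1- (Ttr with log2 folds of -3.12, -3.26 and -4.08 in Eng+Flk1+ cells, Eng+Flk1- and Eng-Flk1+). Of all probes tested, 0.422%, 0.238% and 0.269% fell in these comparisons. Amn, Hnf4a, Rbp4 and Trf were tested and not called. Amn averaged about the same in Eng+Flk1- (-1.01) and Eng-Flk1- (-1.14). The summed linear level of the list was 3.28 to 3.96 in Eng+Flk1+ cells, 4.44 to 5.16 in Eng+Flk1- cells, 2.97 to 5.06 in Eng-Flk1+ cells and 40.3 to 189 in Eng-Flk1- cells. Afp, another defining marker, was not well above background on any Eng-Flk1- array. Epiblast markers summed to 3.66 to 8.10, 7.80 to 10.7, 3.89 to 6.42 and 25.6 to 64.7 in the same order, and 2, 2 and 1 of 5 fell. Their part in the globin differences was not tested, and in bulk samples fewer cells of a type and less RNA per cell cannot be told apart.

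Markers of mature blood gave other values. Of the list for adult red cells, 0 of 7 tested genes passed limma's threshold in any of the 6 comparisons, and of leukocyte markers 0 of 12. At an unadjusted p under 0.05 there were 0 to 2 adult red cell genes and 0 to 1 leukocyte genes per comparison. The leukocyte list summed to 2.91 to 6.36 in Eng+Flk1+ cells, 3.69 to 5.48 in Eng+Flk1- cells, 2.62 to 3.33 in Eng-Flk1+ cells and 2.13 to 7.82 in Eng-Flk1- cells, and the adult red cell list to 5.59 to 16.2, 6.01 to 10.3, 9.79 to 11 and 8.87 to 25.6. Ptprc, the pan-leukocyte phosphatase, lay at -3.75, -4.28 and -3.61 in Eng-Flk1- cells. Eng+Flk1+ replicate 2 was higher, at -1.13. All other arrays were lower, between -5.12 and -4.38. Of 6 decidua and uterus markers 3 were tested and 0 passed limma's threshold, with 0 to 1 at an unadjusted p under 0.05. Whether maternal blood contributed to the Eng-Flk1- samples was not tested.

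The embryonic globins did not form 1 pattern. Hbb-bh1, the main early beta-type chain of yolk sac red cells, was high in both Flk1- fractions. Its probe at base 395 had levels of -1.54, -1.22 and -1.56 in Eng+Flk1+ cells, 2.57, 3.07 and 2.34 in Eng+Flk1- cells, -0.45, -1.44 and -1.88 in Eng-Flk1+ cells, and 2.56, 4.05 and 4.87 in Eng-Flk1- cells. The probe at base 375 had levels of -8.02, -6.61 and -7.44 in Eng+Flk1+ cells, 2.55, 2.97 and 2.29 in Eng+Flk1- cells, -1.41, -5.90 and -7.12 in Eng-Flk1+ cells, and 2.51, 4.08 and 4.99 in Eng-Flk1- cells. On both probes the Eng+Flk1- and Eng-Flk1- arrays overlapped and lay above all Flk1+ arrays. At base 375 no Eng+Flk1+ array and 2 of 3 Eng-Flk1+ arrays were well above background, and Eng-Flk1+ replicate 1 was the highest of the Flk1+ arrays on both probes.

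Hba-x, the embryonic alpha-type chain, varied widely between sorts. It had levels of -5.55, -4.98 and -4.99 in Eng+Flk1+ cells, -4.02, 0.40 and -0.16 in Eng+Flk1- cells, -5.10, -6.16 and -1.04 in Eng-Flk1+ cells, and 4.06, 1.19 and -2.14 in Eng-Flk1- cells. The Eng-Flk1+ level of -6.16 was not well above background. The 2 Flk1- fractions overlapped, as did Eng+Flk1+ with Eng-Flk1+. Within Eng-Flk1- the array with the highest Hba-x level had the lowest Hbb-bh1 level on both Hbb-bh1 probes, and the array with the lowest Hba-x level had the highest Hbb-bh1 level.

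Hbb-y, the other embryonic beta-type chain, had levels of -0.90, 0.60 and -1.48 in Eng+Flk1+ cells, -1.20, 0.66 and -1.56 in Eng+Flk1- cells, -1.93, -1.53 and -1.45 in Eng-Flk1+ cells, and -0.94, 1.72 and -0.43 in Eng-Flk1- cells. The fractions overlapped throughout, apart from Eng-Flk1+ lying below Eng-Flk1-. Hbb-y was not called in any comparison, and its log2 folds over Eng-Flk1- were -0.71 ± 0.84 in Eng+Flk1+ cells, -0.82 ± 0.84 in Eng+Flk1- cells and -1.75 ± 0.84 in Eng-Flk1+ cells (limma adjusted p = 0.73, 0.694 and 0.302). 

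Eraf had levels of -3.82, -3.49 and -4.71 in Eng+Flk1+ cells, -2.84, -3.53 and -1.50 in Eng+Flk1- cells, -2.25, -4.19 and -3.89 in Eng-Flk1+ cells, and 0.90, 3.13 and 1.38 in Eng-Flk1- cells. As with the adult globins, the Eng-Flk1- arrays lay above all others. The chaperone fell with log2 folds of -5.81 in Eng+Flk1+ cells, -4.42 in Eng+Flk1- cells and -5.24 in Eng-Flk1+ cells, each ± 0.79 (limma adjusted p = 0.0034, 0.0196 and 0.00692). With slide as a block the folds were -3.66, -1.58 and -4.05, and none passed. The call in Eng+Flk1- was lost in 6 of 24 alternatives: besides the slide block, with the replicate block (limma adjusted p = 0.0509), array quality weights (limma adjusted p = 0.0792) or only the 2 fractions in the fit (limma adjusted p = 0.0896), and without Eng+Flk1- replicate 1 or 2 (limma adjusted p = 0.0709 and 0.0798).

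**Figure D2:**
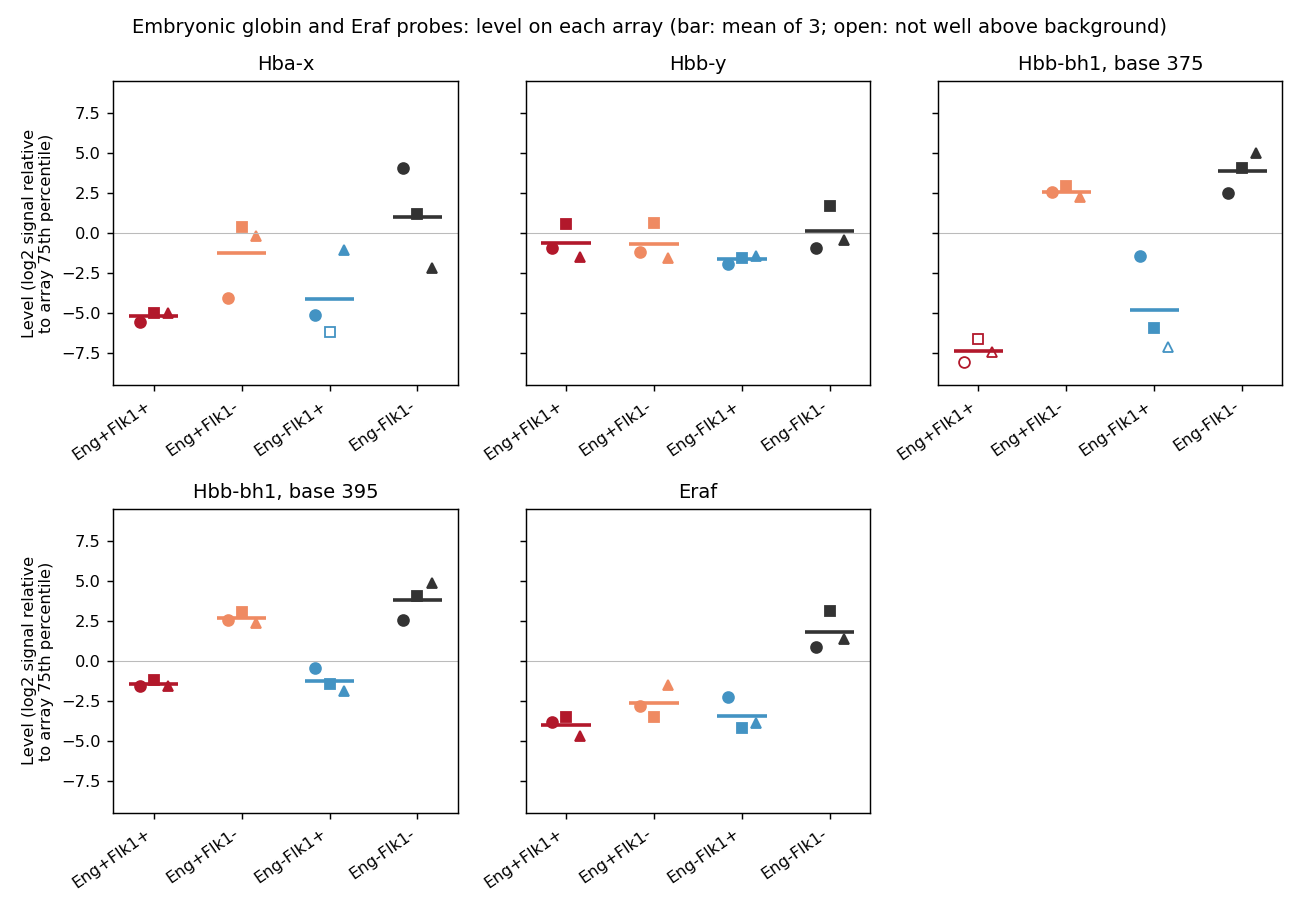
Levels of the 4 embryonic globin probes and of Eraf (y axis, log2 signal less the array's 75th percentile) in the 4 fractions (x axis), with points, bars and open symbols as in the plot of the adult probes. Hbb-bh1 is high in Eng+Flk1- cells (2.29 to 3.07) and Eng-Flk1- (2.51 to 4.99), Hbb-y overlaps across fractions, and Eraf is high in Eng-Flk1- alone (0.90 to 3.13).

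Between the endoglin-positive fractions, Hbb-bh1 was the only member called. In Eng+Flk1+ against Eng+Flk1-, 2 of 11 probes fell and 0 rose, against 0.127% and 0.214% of all probes tested. Both are Hbb-bh1 probes. At base 395 the mean was -1.44 ± 0.19 in Eng+Flk1+ cells and 2.66 ± 0.38 in Eng+Flk1- cells (SD, n = 3 each), a log2 fold of -4.10 ± 0.62 (limma adjusted p = 0.0255), or 17.1-fold lower. At base 375 the level was at least 426-fold lower in Eng+Flk1+ cells (limma adjusted p = 0.0112). None of the 6 adult probes passed, with log2 folds between -2.67 and 0.90.

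The Hbb-bh1 calls in this comparison depended on single arrays. Leaving out Eng+Flk1+ replicate 3 left 0 probes called, and leaving out any other single array of Eng+Flk1+ or Eng+Flk1- left 1, that at base 375. The log2 fold at base 395 then ran from -4.26 to -3.89. No range is given at base 375, where no Eng+Flk1+ array was well above background. Eng+Flk1+ replicate 3 is the only array of its fraction on slide 3, within which the log2 fold at base 395 was -4.22. With slide as a fixed block the probe at base 395 had a log2 fold of -4.22 (limma adjusted p = 0.271), and the probe at base 375 was the 1 of 11 called. Other cell type markers differed as well: endothelial markers summed to 35.1 to 66.6 in Eng+Flk1+ cells and 1.93 to 2.82 in Eng+Flk1- cells and 6 of 9 rose, and trophoblast markers summed to 3.43 to 10.4 in Eng+Flk1+ cells and 19.4 to 25.1 in Eng+Flk1- cells, with 1 of 7 falling (Elf5, with a log2 fold of -4.15 ± 0.50). Of all probes tested, 0.214% rose and 0.127% fell in this comparison. The part of these markers in the Hbb-bh1 difference was not tested.

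Flk1 among endoglin-negative cells gave calls for both adult and embryonic globins. In Eng-Flk1+ against Eng-Flk1-, 9 of 11 probes fell and 0 rose, against 0.269% and 2.34% of all probes tested. These were the 6 adult probes, Eraf and both Hbb-bh1 probes. Of them, Hbb-b1 at base 496 entered the test only through Eng-Flk1-, and its call was lost in 9 of 22 alternatives. That probe alone separates this set from the 8 called in Eng+Flk1+ against Eng-Flk1-. Hbb-bh1 at base 395 averaged -1.26 ± 0.74 in Eng-Flk1+ cells and 3.83 ± 1.17 in Eng-Flk1- cells (SD, n = 3 each), a log2 fold of -5.08 ± 0.62 (limma adjusted p = 0.00254), and at base 375 it fell by 8.67 ± 1.24 (limma adjusted p = 0.0054, and 0.0594 with array quality weights, 0.053 with only the 2 fractions and 0.132 with the slide block). Within slide 1 these folds were -4.27 and -5.27. Hba-x had a log2 fold of -5.14 ± 1.73 with overlapping arrays (limma adjusted p = 0.163).

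Endoglin among Flk1-negative cells gave a different set. In Eng+Flk1- against Eng-Flk1-, 6 of 11 probes fell and 0 rose, against 0.238% and 1.77% of all probes tested, and these were 5 adult probes and Eraf. None of the 4 embryonic probes passed, with log2 folds of -1.17 ± 0.62 and -1.26 ± 1.24 for Hbb-bh1 at bases 395 and 375 (limma adjusted p = 0.416 and 0.681), -2.30 ± 1.73 for Hba-x (limma adjusted p = 0.573) and the value of Hbb-y given above. In Eng+Flk1+ against Eng-Flk1-, which differ in both markers, 8 of 11 fell and 0 rose, against 0.422% and 2.6% of all probes tested: 5 adult probes, Eraf and both Hbb-bh1 probes. Hbb-bh1 fell there by 5.26 ± 0.62 at base 395 (limma adjusted p = 0.00172) and was at least 1020-fold lower at base 375 (limma adjusted p = 0.00118).

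Endoglin among Flk1-positive cells gave no call. In Eng+Flk1+ against Eng-Flk1+, 0 of 11 probes passed limma's threshold and 0 had an unadjusted p under 0.05, against 0.0332% of all probes called in either direction and 1659 with an unadjusted p under 0.05. By means, Hbb-bh1 at base 375 was at least 2.5-fold lower and Hbb-b1 at base 496 at least 1.01-fold higher in Eng+Flk1+ cells. The value of 2.5 rests on Eng-Flk1+ replicate 1. Levels at base 375 in Eng-Flk1+ cells were -1.41, -5.90 and -7.12, the last not well above background, and the 2 fractions overlapped. The log2 folds of the other probes ran from -1.07 ± 1.73 for Hba-x to 1.05 ± 0.84 for Hbb-y. Both fractions had Hbb-b1 at base 61 at about the same level, with a log2 fold of 0.01 ± 0.43. The error of Hba-x leaves room for a large change in either direction.

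Between the 2 fractions positive for 1 marker, the Hbb-bh1 probes narrowly missed the threshold. In Eng+Flk1- against Eng-Flk1+, limma called 0 of 11 probes and 2 had an unadjusted p under 0.05, both of Hbb-bh1, against 0.124% of all probes in either direction and 1898 with an unadjusted p under 0.05. Hbb-bh1 had log2 folds of 3.92 ± 0.62 at base 395 (limma adjusted p = 0.0538) and 7.41 ± 1.24 at base 375 (limma adjusted p = 0.0681), with all Eng+Flk1- arrays above all Eng-Flk1+ arrays on both probes. These fractions share no slide. Both probes were called with normexp background correction, with quantile normalization, with slide as a random block and with array quality weights. The adult probes had folds of 0.14 to 2.05 and none was called.

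**Figure D3:**
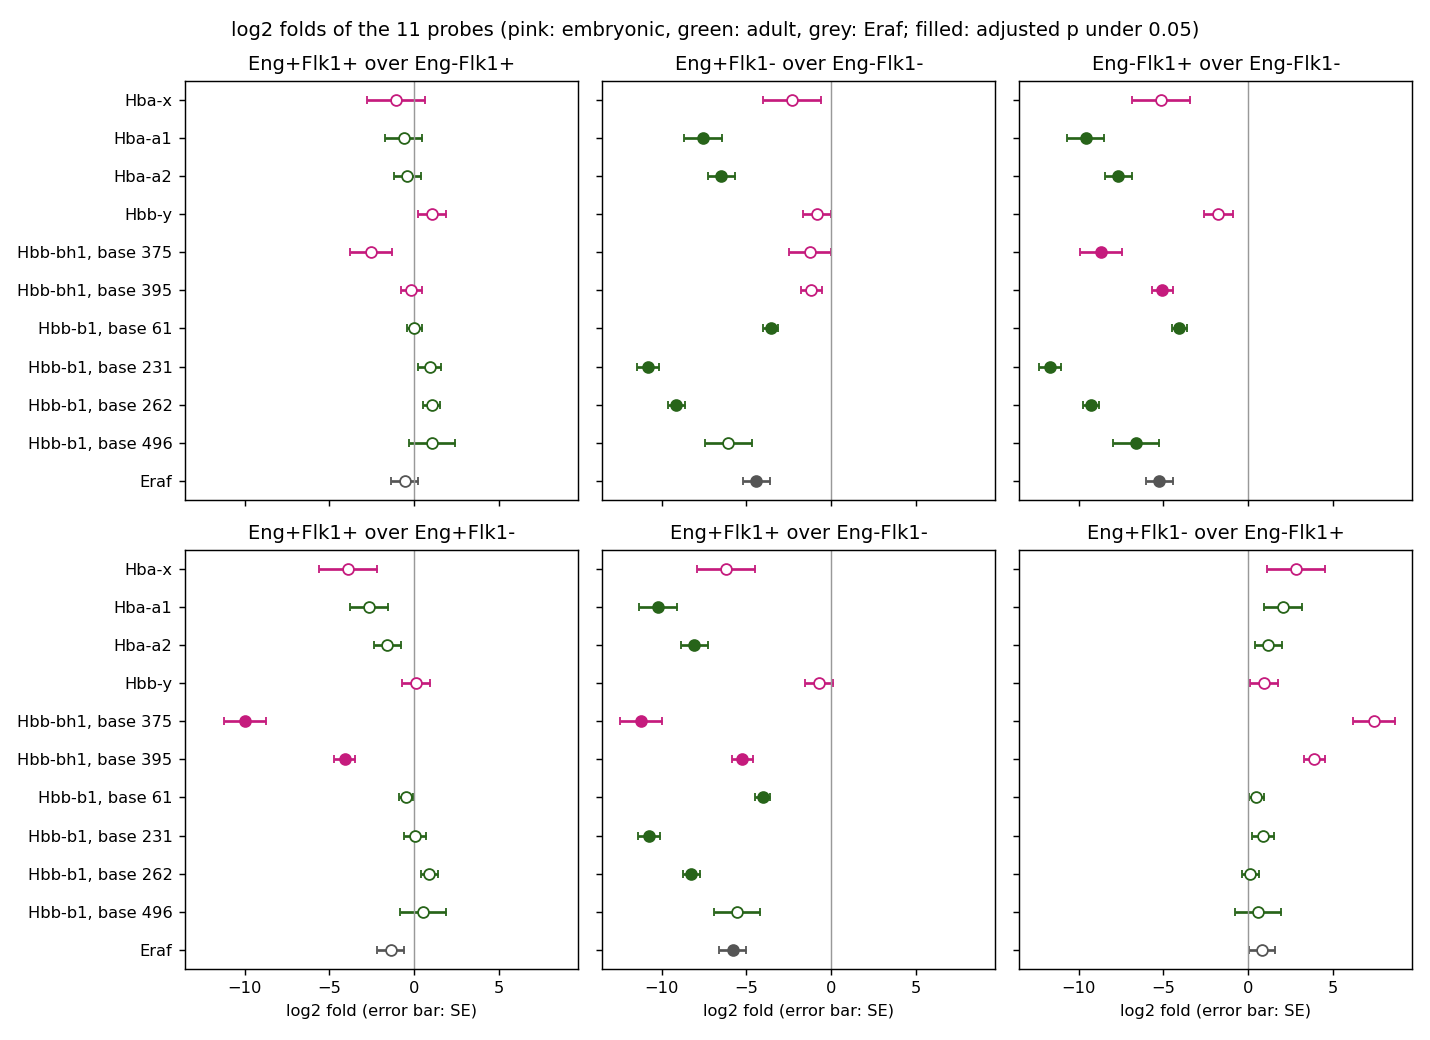
The log2 folds (x axis, first-named fraction over second, with SE bars from the limma fit) of the 11 probes (y axis) in the 6 comparisons (panels), in green for adult globins, pink for embryonic globins and grey for Eraf, filled where the adjusted p was under 0.05. Base 375 of Hbb-bh1 and base 496 of Hbb-b1 are drawn at their fitted folds, which are not bounds. Adult folds over Eng-Flk1- lie between -11.69 and -3.57, and in Eng+Flk1+ over Eng+Flk1- the filled points are the 2 Hbb-bh1 probes.

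The difference between Eng+ and Eng- cells in Hbb-b1 at bases 231 and 262 was not the same among Flk1-positive and Flk1-negative cells. The interaction, the fold of Eng+ over Eng- among Flk1+ cells minus that among Flk1- cells, was positive and called for 4 of 11 probes, against 0.0362% of all probes. It was 10.18 ± 0.71 for Hbb-b1 at base 262 (limma adjusted p = 0.000893), 11.74 ± 0.93 at base 231 (limma adjusted p = 0.00138), 3.58 ± 0.60 at base 61 (limma adjusted p = 0.0337) and 6.09 ± 1.14 for Hba-a2 (limma adjusted p = 0.0485). For Hba-a1 it was 6.93 ± 1.57 (limma adjusted p = 0.0975). None of the 4 embryonic probes passed, with values from 0.99 to 1.86 for those other than base 375 of Hbb-bh1, which has only a bound in Eng+Flk1+ cells. Hbb-b1 at bases 231 and 262 passed in all 21 and 22 alternatives run for them. Hba-a2 passed in 5 of 23 (limma adjusted p of 0.0183 to 0.348) and base 61 in 12 of 23 (limma adjusted p of 0.0108 to 0.471). With slide as a fixed block or with quantile normalization, 2 of 11 probes were called, those at bases 231 and 262. With the replicate block Hba-a2 and base 61 also failed (limma adjusted p = 0.0699 and 0.0726).

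The balance of embryonic and adult globins was summarised on each array as the mean level of the 3 embryonic genes minus that of the 3 adult genes, after averaging probes of a gene. Probe brightness sets the zero of this gap, so only its differences between fractions can be read, and no test was made. Hbb-bh1 at base 375 and Hbb-b1 at base 496, not well above background in some fractions, enter as measured. The gap was -1.98, -1.23 and -1.73 in Eng+Flk1+ cells, -0.15, 2.98 and -0.96 in Eng+Flk1- cells, -0.04, -2.22 and -1.55 in Eng-Flk1+ cells, and -5.27, -4.12 and -5.84 in Eng-Flk1- cells. It was lowest on the Eng-Flk1- arrays, which overlapped with no other fraction, and highest on average in Eng+Flk1- cells, at 0.62 ± 2.08 (SD, n = 3). The Eng+Flk1- arrays spread widely, lying above all Eng+Flk1+ arrays and overlapping with Eng-Flk1+.

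As measured, with dim probes included, the beta-type genes separated the fractions further. The gap of Hbb-bh1 and Hbb-y over Hbb-b1 averaged 0.22 ± 0.55 in Eng+Flk1+ cells, 3.92 ± 0.79 in Eng+Flk1- cells, 1.14 ± 1.51 in Eng-Flk1+ cells and -2.46 ± 1.95 in Eng-Flk1- cells (SD, n = 3 each). The lowest Eng+Flk1- array, at 3.34, lay above the highest array of every other fraction, which was 2.88 in Eng-Flk1+ cells. The alpha-type gap, Hba-x over Hba-a1 and Hba-a2, averaged -3.92 ± 0.30, -2.14 ± 3.05, -3.35 ± 1.85 and -6.85 ± 3.31 in the same order, and its fractions overlapped. Within Eng-Flk1- the alpha-type gap ranged from -10.45 to -3.93.

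**Figure D4:**
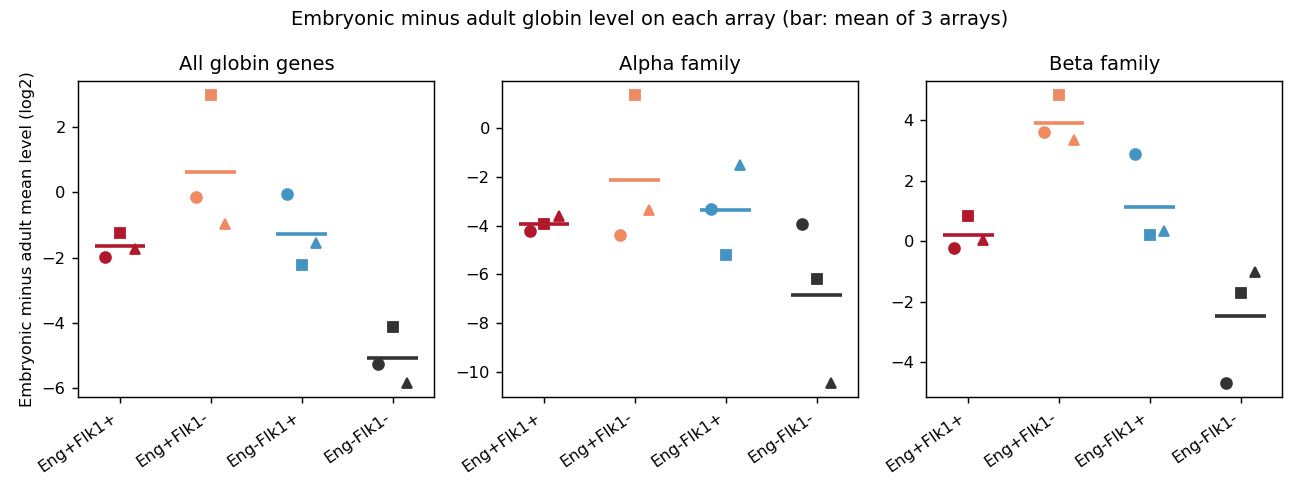
Embryonic minus adult globin level (y axis, log2) on each array by fraction (x axis), over all globin genes, the alpha-type genes and the beta-type genes (panels), with 1 point per array and a bar at the mean of 3. The beta-type gap is 3.34 to 4.82 in Eng+Flk1- cells, above all other arrays, and the gap over all genes is lowest in Eng-Flk1- cells (-5.84 to -4.12).

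Few genes that act with the globins passed the test. Of 5 other members of the globin family on the array 4 were tested, and Hbq1a and Hbq1b (theta), Cygb (cytoglobin) and Ngb (neuroglobin) gave 0 of 4 limma calls and 0 of 4 at an unadjusted p under 0.05 in every comparison, with log2 folds over Eng-Flk1- from -0.62 to 0.71. Of 20 regulators of globin genes and red cell formation, 1 rose in each of Eng+Flk1+ and Eng-Flk1+ over Eng-Flk1-, against 2.6% and 2.34% of all probes, and 0 passed in the other 4 comparisons, where limma gave 0 to 4 at an unadjusted p under 0.05. That gene was Tal1, a transcription factor needed for all blood formation, with levels of 3.95, 3.32 and 3.69 in Eng+Flk1+ cells, 3.56, 2.99 and 3.83 in Eng-Flk1+ cells and -0.59, -1.74 and 1.39 in Eng-Flk1- cells. It rose by 3.97 ± 0.73 in Eng+Flk1+ cells and 3.78 ± 0.73 in Eng-Flk1+ cells (limma adjusted p = 0.0162 and 0.0228), the opposite direction to the globins in the same comparisons.

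The median log2 fold of the regulators was 0.18, -0.35 and -0.26 in Eng+Flk1+ cells, Eng+Flk1- and Eng-Flk1+ over Eng-Flk1-, where the median of all probes was 0.04, 0.04 and 0.02. Of 19 tested genes for heme synthesis and iron, and of 19 for the red cell membrane and its enzymes, 0 passed limma's threshold in any of the 6 comparisons, with 0 to 4 and 0 to 5 at an unadjusted p under 0.05. Their medians in the same 3 comparisons were 0.08, -0.03 and -0.27 for heme and iron and 0.46, -0.28 and -0.19 for membrane and enzymes. Alas2, the first enzyme of heme synthesis in red cells, had log2 folds of 0.15, -0.01 and -0.32, each ± 1.22. The median over the 11 globin and Eraf probes was -6.21 in Eng+Flk1+ cells and -4.42 in Eng+Flk1- over Eng-Flk1-. In Eng-Flk1+ the median falls on Hbb-b1 at base 496, which has only a bound.

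**Figure D5:**
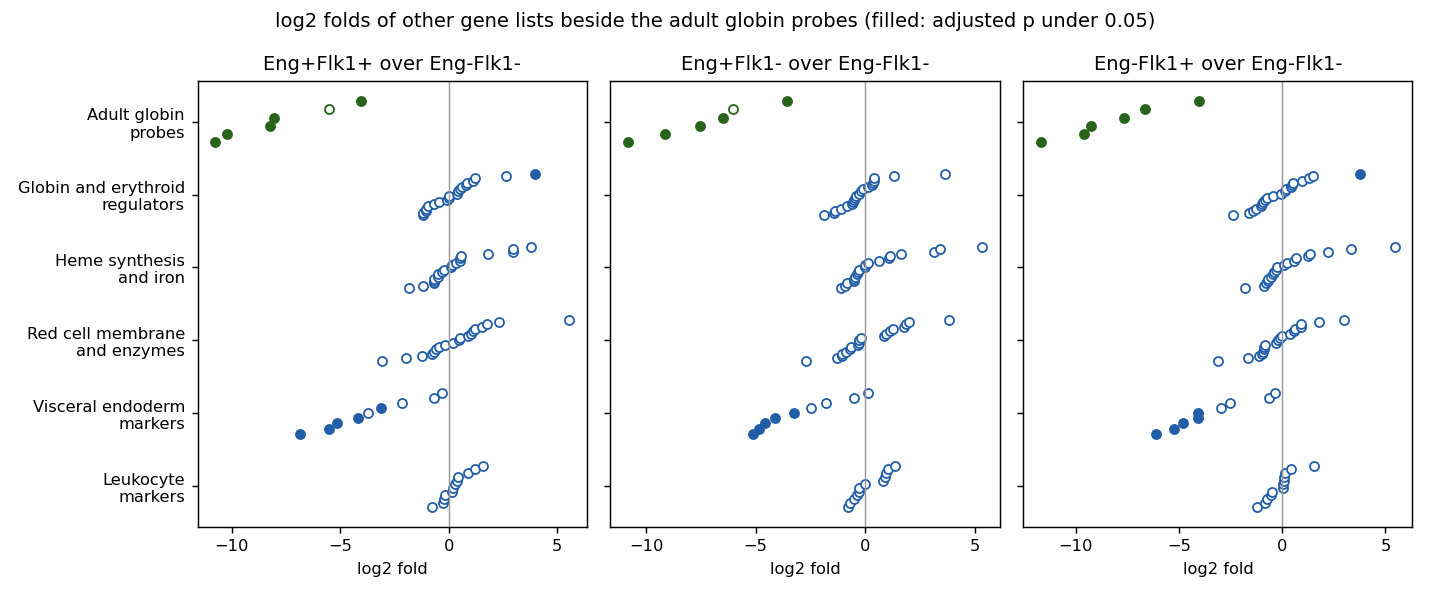
The log2 folds (x axis) of tested genes in 5 lists and of the 6 adult globin probes (rows) in the 3 comparisons with Eng-Flk1- (panels), 1 point per gene or probe, filled where the limma adjusted p was under 0.05. The adult globin probes and 5 visceral endoderm markers have filled points on the low side, Tal1 is the filled regulator on the high side of 2 panels, and the other lists have no filled point.

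Among all named genes tested, those whose level over the 12 arrays followed the mean adult globin level most closely were Il17rc (Pearson r = 0.957), Soga3 (0.954), Apoc2 (0.931), Cntn6 (0.929), Zfp942 (0.925), Mup3 (0.922), Slc2a2 (0.916) and Cfap46 (0.913). Apoc2, an apolipoprotein, averaged 1.71 in Eng+Flk1+ cells, 2.35 in Eng+Flk1- cells, 2.13 in Eng-Flk1+ cells and 6.55 in Eng-Flk1- cells. Slc2a2, a glucose transporter, averaged -7.77, -4.45, -7.18 and -0.00 in the same order. Closest to the mean embryonic globin level were Lmna (0.944), Tfap2a (0.903), Ptprk (0.901), Mt1 (0.894), Btbd35f1 (0.888), Slc16a1 (0.882), Rprml (0.881) and Map7 (0.881). Mt1, a metallothionein, averaged 1.87 in Eng+Flk1+ cells, 4.52 in Eng+Flk1- cells, 1.87 in Eng-Flk1+ cells and 4.88 in Eng-Flk1- cells, so it was high in both Flk1- fractions. These 12 points share fractions, slides and the separation of the Eng-Flk1- arrays, and the values are a ranking without a test.

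Promoter windows are shown as background, and their part in the globin levels was not tested. The RefSeq table (GRCm38.p6) holds windows for 5 of the 7 genes, Hba-x, Hba-a1, Hba-a2, Hbb-y and Hbb-bt, the current name of Hbb-b1. The 120 bases before the transcript start were searched on both strands for 4 short motifs. CACCC is bound by KLF factors, CCAAT is the CCAAT box, GATAA is bound by GATA factors, and TATAAA is the TATA box. Matches are in capitals, and a match on the other strand reads as the reverse complement. None of the motifs contains another.
Hba-x (chr11:32276480-32276599, plus strand): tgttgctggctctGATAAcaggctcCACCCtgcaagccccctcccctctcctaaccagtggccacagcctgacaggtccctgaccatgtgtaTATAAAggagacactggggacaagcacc
Hba-a1 (chr11:32283552-32283671, plus strand): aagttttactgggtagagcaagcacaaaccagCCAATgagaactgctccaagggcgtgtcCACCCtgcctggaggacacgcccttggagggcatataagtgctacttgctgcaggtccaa
Hbb-y (chr7:103853208-103853327, minus strand): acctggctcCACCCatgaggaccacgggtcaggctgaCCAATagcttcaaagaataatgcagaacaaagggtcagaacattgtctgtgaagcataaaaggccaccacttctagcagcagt
Hbb-bt (chr7:103813924-103814043, minus strand): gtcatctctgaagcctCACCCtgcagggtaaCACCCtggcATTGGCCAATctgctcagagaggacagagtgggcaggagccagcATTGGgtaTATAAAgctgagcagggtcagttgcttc

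The Hba-a2 window equals that of Hba-a1 over 117 bases at a shift of 3 bases. All 5 windows hold CACCC, which 31.7% of the 32851 windows in the table hold, and 4 of 5 hold CCAAT, against 21.3%. Hba-x alone of the 5 holds GATAA, which is in 3449 windows of the table. TATAAA is in the Hba-x and Hbb-bt windows, against 6.3%. The Hbb-bt window holds 2 CACCC and 3 CCAAT matches, of which 2 lie on the other strand. Apart from the adult alpha pair, windows matched each other at 32.7% to 40.5% of aligned bases.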

How the data were processed

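Sorted cells of CD-1 mouse embryos were measured on 12 arrays, 3 per fraction, 1 colour each. Per the file headers, the deposited scanner files give intensity per spot from Agilent Feature Extraction 10.5.1.1, background-subtracted by the authors, with no scaling between arrays. They also hold flags of 0 or 1 per spot, per the file headers. The authors' deposited table gives a ratio, the intensity over the array median, and served as an alternative.

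The 1639 control spots and outlier-flagged spots were left out, which leaves 41174 probes. Log2 intensity minus the array's 75th percentile was computed and spots of a probe were averaged. Probes detected well above background in every array of 1 or more fractions, 33142 in all, entered 1 limma fit (version 3.58.1, R 4.3.3) of 4 groups, with Benjamini-Hochberg adjustment and a threshold of 0.05. Comparisons were 6, plus the interaction. The code was tested on simulated data. Named genes are all members, passing members of the lists (at most 4 by lowest p), 8 genes most like each globin mean, and markers; genes named beside them for context (Alas2, Ptprc, Afp, and Klf1 and Slc4a1 in the closing section) were chosen after their values were seen. Names came from a RefSeq table (GRCm38.p6). The members and lists were chosen with earlier results of these data known.

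Deviations of arrays sharing a replicate number correlated between fractions at -0.09 to 0.12 (median 0.00), so the numbers were not taken as pairs. No depth in reads exists for arrays, and their number limits the precision.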

Additional observations from a re-analysis of the deposited data

Results flagged for a closer look

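For 4 adult globin probes the log2 fold of Eng+ over Eng- differed between Flk1+ and Flk1- cells by limma's interaction test. The interaction was 6.09 ± 1.14 for Hba-a2 (adjusted p = 0.0485), and 3.58 ± 0.60, 11.74 ± 0.93 and 10.18 ± 0.71 for Hbb-b1 at bases 61, 231 and 262 (limma adjusted p = 0.0337, 0.00138 and 0.000893). Among Flk1+ cells, the fold of Eng+Flk1+ over Eng-Flk1+ was -0.39, 0.01, 0.92 and 1.04 for these probes, with no call. Among Flk1- cells, the fold of Eng+Flk1- over Eng-Flk1- was -6.48, -3.57, -10.82 and -9.14, all called. The calls at bases 231 and 262 passed in every alternative run, whereas Hba-a2 passed in 5 of 23 and base 61 in 12 of 23. The Eng-Flk1- arrays, all on slide 1, enter the interactions and the folds among Flk1- cells.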

How the results depend on the processing

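Every log2 fold called for a globin or Eraf probe kept its direction under all alternatives run. Slide as a fixed block changed most: the counts of called probes became 0 in Eng+Flk1- over Eng-Flk1-, 3 in Eng-Flk1+ over Eng-Flk1-, 1 in Eng+Flk1+ over Eng+Flk1-, 2 in Eng+Flk1+ over Eng-Flk1- and 2 for the interaction, against 6, 9, 2, 8 and 4. With 1 probe per gene, which leaves 7 probes, they became 5 in Eng-Flk1+ over Eng-Flk1-, 1 in Eng+Flk1+ over Eng+Flk1-, 5 in Eng+Flk1+ over Eng-Flk1- and 1 for the interaction. Keeping only probes above background on all 12 arrays, again 7 probes, gave 1 in Eng+Flk1+ over Eng+Flk1- and 2 for the interaction. The fit with the replicate number as a block gave the same, 1 and 2, and changed no other count by over 1.5 times. Quantile normalization gave 2 for the interaction. In Eng+Flk1- over Eng-Flk1+, 2 probes were called with normexp, quantile normalization, the random slide block or array quality weights, and 1 without the 3 Eng-Flk1- arrays, against 0. The last 2 settings were chosen after seeing the data, and the causes were not tested.

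Leaving out 1 array at a time gave counts of 5 to 7 in Eng+Flk1- over Eng-Flk1-, 8 to 9 in Eng-Flk1+ over Eng-Flk1-, 0 to 2 in Eng+Flk1+ over Eng+Flk1-, 8 to 10 in Eng+Flk1+ over Eng-Flk1-, 0 to 1 in Eng+Flk1- over Eng-Flk1+, 2 to 4 for the interaction and 0 in Eng+Flk1+ over Eng-Flk1+. The difference of the embryonic minus adult gap between Eng+Flk1+ and Eng-Flk1+, -0.38, turned to 0.17 with normexp and 0.27 with 1 probe per gene, and ran from -0.86 to 0.24 with 1 array left out (0.24 without Eng-Flk1+ replicate 1). Dim signals limit Hbb-bh1 at base 375 and Hbb-b1 at base 496, whose low fractions lie near background.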

Other observations

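Of the other red cell genes, Slc4a1 and Klf1 spread widely between the Eng-Flk1- sorts. Both were picked after their values were seen, and others varied little there, with an SD of 0.29 for Gata1, 0.27 for Gfi1b and 0.19 for Epb42 (n = 3 each). Slc4a1, the anion exchanger of the red cell membrane, had levels of 4.27, -0.65 and 2.89 in Eng-Flk1-, and lay between -1.46 and 0.04 on the other arrays. Klf1, the erythroid factor that activates the adult beta gene, had levels of -5.56, 0.12 and -5.27 in Eng+Flk1+, 2.35, 1.69 and -0.38 in Eng+Flk1-, -1.28, -5.36 and -4.72 in Eng-Flk1+, and 4.10, -4.71 and -6.56 in Eng-Flk1-. The level of -6.56 was not well above background. Klf1 was below the Eng+Flk1- arrays on 2 of the 3 Eng-Flk1- arrays, and it was not called in any comparison. Its part in the globin levels was not tested. Eng-Flk1- replicate 1, with the highest Klf1 level, also had the highest Hba-x level of all arrays and the highest Hbb-b1 level at base 496.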
